A study of Homo sapiens with 2 samples.

Results

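The S100 proteins were followed through a comparison of A549 cells, a human lung adenocarcinoma line, with and without an shRNA against SOX2. The genes were chosen by symbol from the deposited table, by a list of 10 names, and 9 of the 10 had a row among its 13137 genes. No tags of S100A14 were analysed here, and only its sequence was searched. A549-H1tetO-shRNA-SOX2 cells carried a doxycycline-inducible shRNA against SOX2 under the H1TetO promoter, and A549-H1tetO-shRNA-Con cells carried a scrambled shRNA in the same vector. Each line was a lentivirus-infected polyclone selected with puromycin, and both lines received doxycycline for 4 days. From each line, 4 µg of total RNA gave 1 library of digital gene expression tags, in which 1 short tag stands for 1 captured mRNA. The value columns are headed SC and S1. SC was taken as shRNA-Con from its initials and S1, the other column, as shRNA-SOX2.

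S100 proteins are small calcium sensors. Each folds a pair of EF-hands, the helix-loop-helix unit that holds a calcium ion, and works as a dimer. Calcium opens a surface on the dimer that grips a target protein such as an annexin, a myosin heavy chain or a membrane-cytoskeleton linker. S100A10 is the exception, since its loops have lost calcium binding and it is held in the open form. Most of the genes sit in a cluster on the long arm of chromosome 1, S100P lies on chromosome 4, and several family members are studied in lung cancer for their part in cell motility and invasion.

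There were 2304184 gene tags in shRNA-Con against 2093816 with the shRNA-SOX2 label, and they made up 65.5% and 60.6% of the clean tags. In shRNA-Con, SOX2 had 16 tags, and the library labelled shRNA-SOX2 had 23, so the ratio was 1.58 with a 95% interval of 0.80 to 3.2 from counting error. The targeted mRNA had no fewer tags in the library that carries its name, and every direction given here is that of the labels. Of 6 markers of A549 epithelium, KRT8 had 7702 tags in shRNA-Con against 12729 in the other library, KRT18 had 10318 and 7887, and AKR1B10 had 6039 and 4581. KRT19 differed most of the 6, with 35 and 127 tags, a ratio of 3.99. CDH1 had 50 tags in each library and EPCAM only 8 and 4. Of 6 markers of leucocytes, endothelium, fibroblasts and squamous epithelium, 3 had a row, namely TP63 with 7 and 23 tags, PTPRC with 2 in each library and PECAM1 with 3 and 0. In RNA from whole cultures, fewer cells of a kind and less mRNA per cell cannot be told apart.

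To determine how the family differed between the libraries, the tags of each gene were set against the remaining gene tags in Fisher's exact test (two-sided), adjusted by the Benjamini-Hochberg method over all 13137 genes at the study's false discovery rate (FDR) of 0.001. With 1 library per line there is no spread between replicates, so the test compares these libraries and not the conditions, and the intervals cover counting error only. In the library labelled shRNA-SOX2, tags of S100A6 and S100P were fewer and those of S100A4, S100A10 and S100A16 more. S100A2, S100A3, S100A11 and S100A13 did not pass the test. Thus 5 of the 9 genes passed, against 21.7% of all genes. The 3 higher genes stand beside 9.53% of all genes called higher, and the 2 lower genes beside 12.2% called lower. Lower genes made up 56.1% of all calls. This share was 66.6% when the libraries were scaled by clean tags, and 49.4% or 49.7% when scaled by TMM or by the median ratio. The share of genes that passed in either direction was larger at greater depth. Of the 693 genes with 1000 or more tags over both libraries, 72.4% passed. So did 3 of the 4 S100 genes of that depth. The changes were mostly small. Of the 8 S100 genes with 20 or more tags, 1, S100A6, reached a log2 fold change of 1 in either direction, as did 23.4% of all 10045 genes with that many tags. These shares are not at like depth, since 4 of the 8 S100 genes but only 693 of all genes had 1000 or more tags. The median log2 fold change of these 8 genes was 0.34, with a range from -1.18 to 0.92, and that of the 10045 genes was -0.10.

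**Figure D1:**
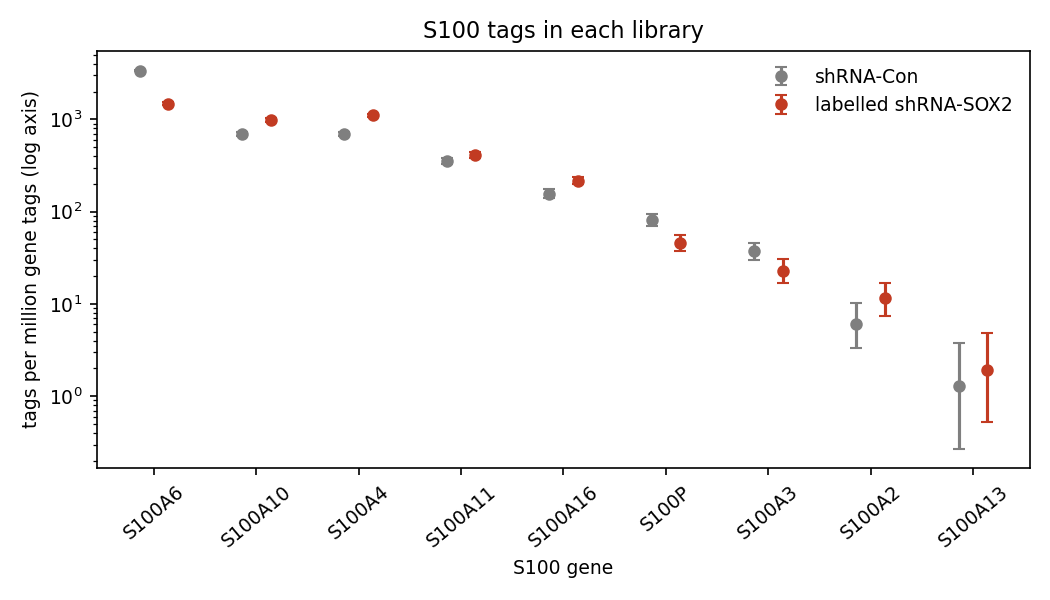
Tags per 1000000 gene tags (log axis) of the 9 S100 genes in shRNA-Con (grey) and in the library labelled shRNA-SOX2 (red), 1 library each, with 95% Clopper-Pearson intervals from counting error. S100A6 stands highest in both libraries and drops from 3375 to 1485, while S100A4 and S100A10 move up to 1102 and 981.

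S100A6, also called calcyclin, binds the calcyclin-binding protein CACYBP and several annexins. In shRNA-Con it had 7776 tags, and the library labelled shRNA-SOX2 had 3109. Per 1000000 gene tags this was 3375 (95% interval 3300 to 3450) and 1485 (1433 to 1538), so that the intervals lie far apart. The ratio was 0.440 (0.422 to 0.459) and the log2 fold change -1.18, and the p-value of Fisher's exact test was below the smallest number that the software can write. In shRNA-Con it stood at place 16 of all genes by number of tags, and in the other library at place 70. Its level dropped by 1890 tags per 1000000 gene tags, and in rank of loss it was number 7 of all genes in the table. Of the 88 genes whose tag number lay within 2-fold of its own, 8, itself included, had a log2 fold change as low as -1.18. Those 88 genes had a median log2 fold change of -0.06, and 84.1% of them passed the test in one direction or the other.

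The region just before the start of S100A6 is shown beside that of S100A4, since these neighbours were called in opposite directions. These are the 150 bases before each start site on the minus strand, from RefSeq on GRCh38.p14, for S100A6 at chr1:153535992-153536141 and for S100A4 at chr1:153545807-153545956. Both stretches lie within the annotated gene spans given below, so other annotated starts lie further upstream and are not shown. Capitals mark matches to a GC box (GGGCGG) or a TATA box (TATAAA) on either strand.

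S100A6: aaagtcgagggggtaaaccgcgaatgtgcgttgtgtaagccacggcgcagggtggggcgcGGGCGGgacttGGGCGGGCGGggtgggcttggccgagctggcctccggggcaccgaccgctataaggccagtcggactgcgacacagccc

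S100A4: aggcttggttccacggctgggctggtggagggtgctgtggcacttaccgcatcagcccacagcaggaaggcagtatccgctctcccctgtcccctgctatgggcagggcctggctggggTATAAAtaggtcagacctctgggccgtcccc

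The S100A6 stretch holds 3 GC boxes, of which the last 2 overlap. The S100A4 stretch holds a TATA box 31 bases before the start and no GC box. G or C made up 70% of the S100A6 stretch and 64% of the S100A4 stretch. Only the exact letters TATAAA were searched for. The S100A6 stretch holds the near form tataag at a similar place, so the stretches are not told apart by a TATA-like element. Over the 250 bases before the start, a GC box was found in 42.6% of 35116 RefSeq promoter windows, and a TATA box in 10.7%. The letters CATTGTT, a form of the SOX motif, were in 2.87% of the windows and in none (0) of the 14 windows of the 10 named S100 genes, and TGANTCA, the AP-1 motif, in 6.57% and in 1 window each of S100A2 and S100A3. S100P carries a TATA box 28 bases before its start and S100A10 a GC box 167 bases before its own. A match to such letters describes the sequence and does not show that a factor binds there.

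S100A4 binds the heavy chain of non-muscle myosin, MYH9, and is known for its association with metastasis. With 1586 tags in shRNA-Con and 2308 under the shRNA-SOX2 label, its level was 688 (655 to 723) and 1102 (1058 to 1148) per 1000000 gene tags. This made a ratio of 1.60 (1.50 to 1.71) and a log2 fold change of 0.68 (Fisher's exact test, adjusted p = 2.77e-46). Of 217 genes with a like number of tags, 13.8% had a log2 fold change as high or higher. S100A4 and S100A6 are near neighbours on the minus strand of chromosome 1 in GENCODE release 29 (GRCh38), from 153543613 to 153550136 and from 153534599 to 153536244, 7368 bases apart. For each S100A6 tag there were 0.204 S100A4 tags in shRNA-Con against 0.742 in the other library. This ratio rose 3.64-fold (95% interval 3.37 to 3.93), and no scaling of the libraries can alter it.

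S100A3 lies inside the same stretch, from 153547329 to 153549372, where the annotated span of S100A4 overlaps it on the same strand. It is a cysteine-rich member best known from the hair cuticle. The library labelled shRNA-SOX2 had 48 of its tags and shRNA-Con had 86, and with a ratio of 0.614 (0.422 to 0.884) and a log2 fold change of -0.70 it did not pass the threshold (Fisher's exact test, adjusted p = 0.0219). Although they share a stretch of chromosome, S100A3 and S100A4 had no window of 21 bases in common among their annotated transcripts (0 of 934 windows of S100A3). Relative to S100A4, the S100A3 tags were 0.384-fold (0.262 to 0.556) as many in the library labelled shRNA-SOX2 as in shRNA-Con. S100A2, a family member known from epithelia, follows 11735 bases further on and had 14 and 24 tags, a ratio of 1.89 (0.94 to 3.9; Fisher's exact test, adjusted p = 0.151). At this depth neither direction could be told for S100A2 alone. Set against S100A3, its tags were 3.07-fold (1.37 to 7.0) more in the library labelled shRNA-SOX2. For each of these 3 pairs the 95% interval left out 1. So did the interval of S100A3 alone, while that of S100A2 alone took in 1. These intervals are not adjusted for the number of genes, so they are not comparable with the test at FDR 0.001. The pairs also share genes and are not separate results.

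S100A10 and S100A11 lie 1486691 bases or more from this stretch, toward lower coordinates, and both work at membranes with annexins. S100A10 forms a tetramer with ANXA2 that carries plasminogen and its activator at the cell surface. Its tags numbered 1598 in shRNA-Con and 2055 under the shRNA-SOX2 label, or 694 (660 to 728) and 981 (940 to 1025) per 1000000 gene tags. The ratio of 1.42 (1.32 to 1.51) corresponds to a log2 fold change of 0.50 (Fisher's exact test, adjusted p = 4.16e-24). Among 238 genes with a like number of tags, 23.5% had a log2 fold change as high or higher. In shRNA-Con, S100A10 and S100A4 had nearly equal numbers of tags, 1598 and 1586, and their intervals overlapped. In the library labelled shRNA-SOX2 S100A4 had more, 2308 against 2055, and the intervals did not overlap.

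S100A11, a partner of ANXA1 in membrane repair and growth control, had 820 tags in shRNA-Con against 859 with the shRNA-SOX2 label, or 356 (332 to 381) and 410 (383 to 439) per 1000000 gene tags. The intervals lay next to each other with hardly any gap, and the log2 fold change of 0.21 did not pass the threshold (Fisher's exact test, adjusted p = 0.0121). With TMM factors it was 0.28 and passed (Fisher's exact test, adjusted p = 0.000417), and with clean tags it was 0.09. S100A10 tags per S100A11 tag were 1.95 in shRNA-Con against 2.39 in the other library, a 1.23-fold difference (1.09 to 1.38) that holds under any scaling. S100A11 has processed pseudogenes, and 17.0% of its windows of 21 bases recur in transcripts of 11 other genes, S100A11P1 and S100A11P2 among them. These windows run over whole transcripts, whereas a counted tag is 1 short piece of an mRNA. The percentage therefore does not give the part of the count that is shared. How the authors counted shared tags is not given in the sources used here, and whether the S100A11 tags were shared was not tested.

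S100P, a secreted ligand of the receptor AGER that also binds the linker protein ezrin (EZR) and the scaffold IQGAP1, lies on chromosome 4 from 6693069 to 6697170. There were 187 tags of S100P in shRNA-Con against 96 with the shRNA-SOX2 label, or 81.2 (69.9 to 93.7) and 45.8 (37.1 to 56.0) per 1000000 gene tags. A ratio of 0.565 (0.437 to 0.726) and a log2 fold change of -0.82 resulted (Fisher's exact test, adjusted p = 2.61e-05). Of 3668 genes with a like number of tags, 16.5% had a log2 fold change as low or lower. The S100 genes called lower, S100P and S100A6, therefore lie on different chromosomes.

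S100A16, an S100 protein found in many tissues, had 362 tags in shRNA-Con against 455 with the shRNA-SOX2 label, or 157 (141 to 174) and 217 (198 to 238) per 1000000 gene tags. Its ratio was 1.38 (1.20 to 1.59) and its log2 fold change 0.47 (Fisher's exact test, adjusted p = 2.74e-05). With clean tags the log2 fold change was 0.35 and it no longer passed the threshold (Fisher's exact test, adjusted p = 0.00188). By gene tags, 23.2% of 1661 genes with a like number of tags had a log2 fold change as high as S100A16 or higher. S100A13, which takes part in the release of FGF1 and IL1A from cells without a signal peptide, had only 3 and 4 tags, so that ratios from 0.25 to 10.02 were within counting error. Of its 21-base windows, 22.2% recur on the same strand in 2 other genes and 8.88% on the opposite strand in S100A1, which overlaps it, and the part of these in its low count was not tested. For the 7 genes with a row other than S100A11 and S100A13, at most 0.996% of the windows recur in other genes on the same strand. Whether their counted tags were among these windows was not tested.

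**Figure D2:**
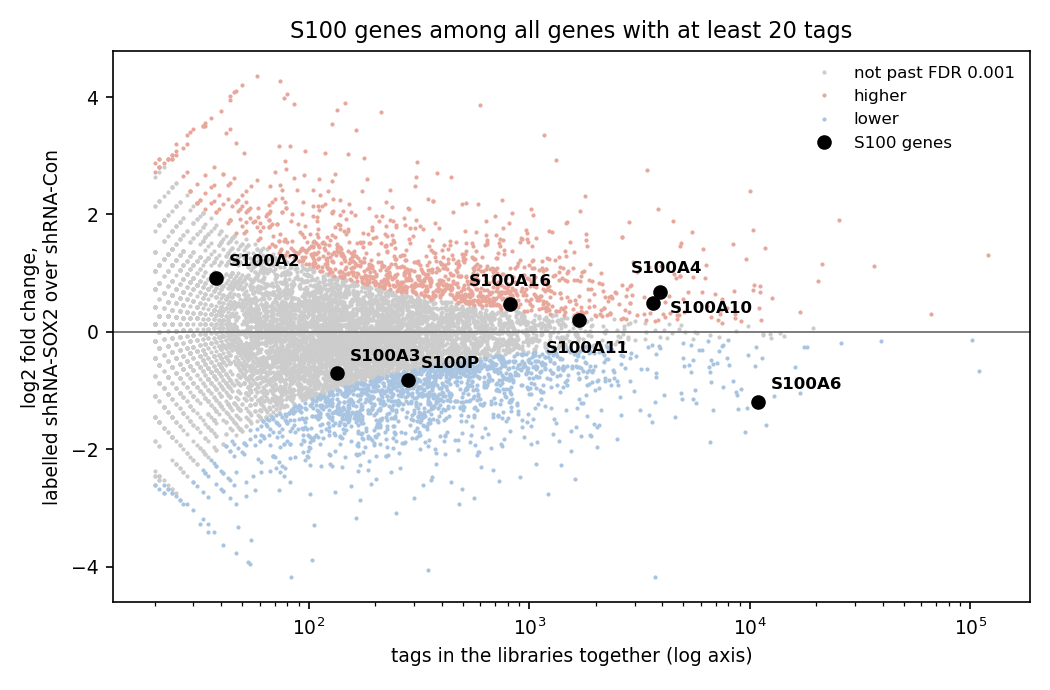
Log2 fold change, shRNA-SOX2 label over shRNA-Con, against the number of tags over both libraries (log axis), for the 10045 genes with 20 or more. Black points are the 8 S100 genes of that depth. S100A6 lies at 10885 tags and -1.18, and the other 7 lie within a log2 fold change of 1 of no change.

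Summed over the family, the 9 genes had 12432 tags in shRNA-Con against 8958 with the shRNA-SOX2 label, or 0.540% and 0.428% of the gene tags. The ratio of these sums was 0.793 (0.772 to 0.815). S100A6 alone set that direction. Without it the remaining 8 genes had 4656 and 5849 tags, a ratio of 1.38 (1.33 to 1.44). S100A6 made up 62.5% of the family's tags in shRNA-Con (95% interval 61.7% to 63.4%) and 34.7% in the library labelled shRNA-SOX2 (33.7% to 35.7%). S100A4 went from 12.8% to 25.8% of the family and S100A10 from 12.9% to 22.9%. These shares add up to a whole, so a lower S100A6 raises the shares of the others.

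By number of tags, the genes of shRNA-Con stood in the order S100A6, S100A10, S100A4, S100A11, S100A16, S100P, S100A3, S100A2 and S100A13. The intervals of S100A10 and S100A4 overlapped, as did those of S100A2 and S100A13, and the other neighbours in this order were apart by more than counting error. In the library labelled shRNA-SOX2 the order was the same but for S100A4, which stood above S100A10, and the intervals overlapped only for S100A3 and S100A2. These are numbers of tags, and how completely each mRNA yields its tag was not calibrated between genes.

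S100 proteins act through their targets, so 31 partner genes were examined, of which 27 had a row. Of these 27, 4 were higher, 3 were lower and 20 did not pass the test. Among the 23 with at least 20 tags, 30.4% passed, and the median log2 fold change was 0.14, against 28.0% and -0.10 for all genes of that depth. The annexin ANXA1 was the largest increase, with 2354 tags in shRNA-Con against 6042 with the shRNA-SOX2 label (log2 fold change 1.50). MDM2, a ubiquitin ligase, had 293 and 734 tags (1.46), NUCB1 501 and 654 (0.52) and ANXA11 243 and 309 (0.48). The lower genes were the protease PLAU, with 224 and 24 tags (log2 fold change -3.08), IQGAP1 with 470 and 267 (-0.68) and MYH9 with 288 and 174 (-0.59).

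Set beside the S100 genes that bind them, MYH9 was lower where S100A4 was higher, and IQGAP1 was lower as S100P was. CACYBP, the partner of S100A6, had 311 tags in shRNA-Con against 262 with the shRNA-SOX2 label, and the interval of its ratio, 0.927 (0.784 to 1.10), does not reach down to the 0.440 of S100A6. EZR had 764 and 652 tags, a ratio of 0.939 (0.845 to 1.04), and S100PBP, which binds S100P, had 92 and 79, a ratio of 0.945 (0.691 to 1.29). AHNAK, the giant scaffold held by S100A10 and ANXA2, had 517 and 538 tags (log2 fold change 0.20; Fisher's exact test, adjusted p = 0.0715). ANXA2 itself was listed with only 5 tags in each library, a level at which no change could be seen. On the same strand, 11.3% of its 21-base windows recur, spread over 4997 other genes. Whether this bears on its low count was not tested. The receptor AGER had 0 tags in shRNA-Con against 3 in the other library, and TLR4 had 0 and 2.

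**Figure D3:**
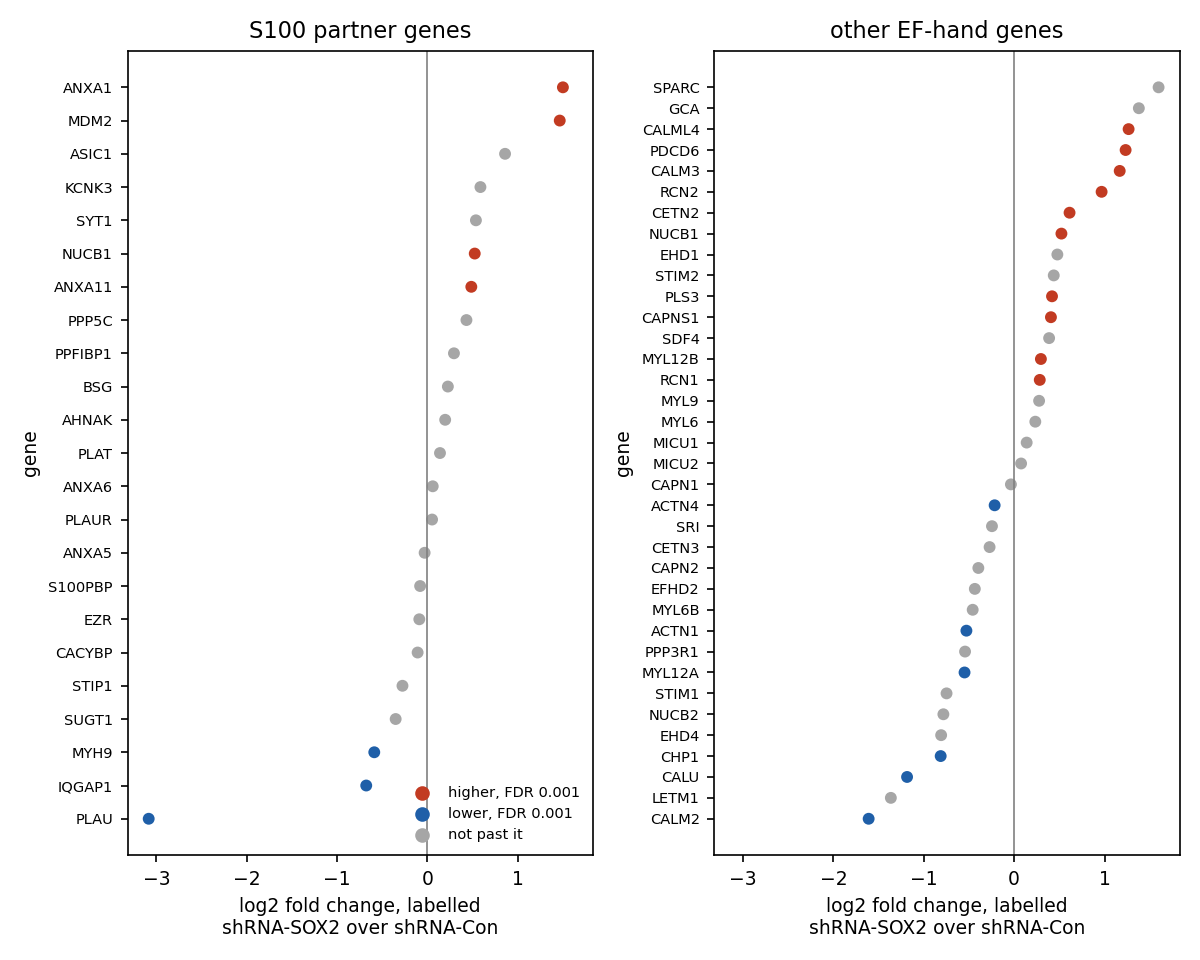
Log2 fold change, shRNA-SOX2 label over shRNA-Con, of the 23 partner genes (left) and the 36 other EF-hand genes (right) with at least 20 tags. Red points were higher, blue lower, and grey did not pass FDR 0.001 in Fisher's exact test; both panels spread to either side of 0, from -3.08 to 1.50 and from -1.61 to 1.60.

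Other proteins with EF-hands were taken for comparison. Of 41 genes taken, 38 had a row, of which 10 were higher, 6 lower and 22 not past the test. Among the 36 with at least 20 tags, 44.4% passed and the median log2 fold change was 0.11, against 28.0% and -0.10 for all genes with that many tags. The list was not matched to all genes in depth, and genes with more tags passed more often. CALM2 and CALM3, which encode the same calcium sensor, calmodulin, passed the test in opposite directions. In shRNA-Con CALM2 had 1253 tags and in the other library 373 (log2 fold change -1.61), while CALM3 had 293 and 598 (1.17). Of the others, CALML4 had 27 and 59 tags (1.27) and PDCD6, also called ALG-2, 332 and 709 (1.23), while CALU, the calumenin of the secretory pathway, had 578 and 231 (-1.19) and CHP1 495 and 256 (-0.81). S100A6, at -1.18, was thus about as low as CALU.

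Among the 507 genes outside the S100 list that the table annotates with calcium ion binding, which take in most of these EF-hand genes, 98 (19.3%) passed the test, 55 higher and 43 lower. The 339 with at least 20 tags had a median log2 fold change of 0.11, and 28.6% passed, close to the 28.0% of all genes with that many tags. The largest increases were those of CERK, with 3 and 37 tags (log2 fold change 3.76), PCDHB5 with 2 and 31, taken against the floor of 3 tags (3.51), and GALNT4 with 10 and 68 (2.90). The largest decreases were those of SNTB1, with 44 and 4 tags (-3.32), NPTX1 with 32 and 0, against the floor (-3.28), and PPP3CB with 22 and 2, against the floor (-2.74). No S100 gene moved by as much as any of these 6. They were picked as the largest changes in a list of 507 genes and had few tags. The comparison therefore does not set the S100 genes apart.

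Of 12 other names of the S100 group, 2 had a row, S100A5 with 6 tags in each library and S100PBP, given above. S100A5 lies between S100A6 and S100A4, from 153537147 to 153541765, so the gene between the ones with opposite directions was too sparse to show either. The same holds for the rest of the cluster. Of 81 gene names annotated between S100A10 and S100A1, where the epidermal differentiation genes lie, 3 had a row, and these were S100A5, TCHH with 0 tags in shRNA-Con against 4 in the other library, and LCE1E with 0 and 3. The stretch from S100A10 to S100A1 therefore gave no other gene of depth to set beside the S100 genes. Genes beyond its ends were not examined.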

How the data were processed

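Tags from 2 libraries of A549 cells, 1 per line, were used. The deposited counts are raw tags per Entrez Gene ID, which the authors had profiled from poly(A) mRNA, caught on oligo(dT) beads, at the Beijing Genomics Institute. The submitters' processing notes name hg19, and the aligner is not given in the sources used here. The deposited TPM, scaled by the authors to clean tags, served only to obtain clean tags. The authors' deposited log2 ratio, p-value and FDR columns compare the libraries and were not used.

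Fold changes used gene tags, with counts under 3 set to 3. Fisher's exact test was adjusted over 13137 genes. Intervals are 95% Clopper-Pearson, exact conditional for ratios of members. A count of 0 allows up to 3 tags, or 1.43 and 1.30 per 1000000 gene tags in the libraries labelled shRNA-SOX2 and shRNA-Con. Medians used genes with at least 20 tags. Alternatives were TMM, median ratio and clean-tag scaling, at least 10 tags, the Audic and Claverie test, edgeR's exact test with an assumed coefficient of variation, FDR 0.05, a minimum fold change and 0.5 added to each count. Python 3.11.15, scipy 1.17.1, R 4.3.3, edgeR 4.0.16 and DESeq2 1.42.0 were used, after tests on simulated data. Members and lists were chosen with earlier results of these data known. Some genes of the partner and EF-hand lists are not reported here and were left out of their counts. Named were all members, a fixed set of partners, and the 3 largest changes each way per list among genes past the test. IDs of 13086 rows were found in RefSeq. Positions are GENCODE release 29, since the table's coordinates carry no chromosome.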

Additional observations from a re-analysis of the deposited data

How the results depend on the processing

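No paired analysis was possible because each line has 1 library, and for the same reason no library could be left out. The directions of the 9 S100 genes were the same when the libraries were scaled by clean tags, TMM or the median ratio, and with 0.5 added to each count. Scaling shifts all log2 fold changes by the same amount, and the intervals of S100A2 and S100A13 included no change. The other alternatives left the fold changes as they were, and the minimum of 10 tags removed S100A13. The number past FDR 0.001, 5 of 9, was 6 with TMM factors or the median ratio, 4 with clean tags and 5 with at least 10 tags or the Audic and Claverie test. It was 7 with FDR 0.05, and 1 (0 higher and 1 lower, S100A6) when a log2 fold change of at least 1 was also required. Under the exact test of edgeR with an assumed coefficient of variation of 0.1 it was again 1 (0 higher and 1 lower, S100A6). With 0.2 it was 0, with 0 higher and 0 lower, 1 gene at an unadjusted p under 0.05, and an adjusted p of 0.0634 for S100A6. With 0.4 it was also 0, with 0 higher and 0 lower, and 0 at an unadjusted p under 0.05. These fits changed both the test and the spread, and no replicate says which coefficient applies. Over all genes, 2849 calls became 1166, 113 and 0 with coefficients of 0.1, 0.2 and 0.4 (627 at an unadjusted p under 0.05 with 0.4), 4902 with FDR 0.05 and 1570 with the minimum fold change. With 0.2, of the lists, 1 partner gene (PLAU), 0 other EF-hand genes (9 at an unadjusted p under 0.05) and 7 calcium ion binding genes passed.

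The median log2 fold change of the S100 genes, 0.34, came to 0.41 with TMM factors, to 0.41 with the median ratio, 0.22 with clean tags and 0.47 without S100A6, an alternative chosen after seeing the data. The median of all genes, -0.10, was -0.03 with TMM factors and -0.22 with clean tags. Depth limits S100A2 and S100A13, with 38 and 7 tags in the libraries together.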
